A study of Mus musculus with 6 samples.

Results

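The genes described here encode 5 cell surface receptors for vasoactive peptides: the bradykinin receptors Bdkrb1 and Bdkrb2, the endothelin receptors Ednra and Ednrb, and the angiotensin II receptor Agtr1a. They were picked by name from 24346 genes listed in each library, at a time when their differences between the genotypes were already known, so those differences are described without a test. RNA was sequenced from stromal cells of the large intestine. The sort kept live cells that carried Podoplanin and lacked CD45 (a leukocyte marker), CD31 (endothelial) and EpCAM (epithelial). The Pdgfra-cre group held 3 Il10ra flox/flox mice with a cre recombinase under control of Pdgfra, a gene of fibroblasts (libraries 13, 23 and 25). The floxed group held 3 Il10ra flox/flox mice without cre (libraries 8, 9 and 43). Both groups were aged 12 weeks and received 1% dextran sulfate sodium (DSS), an agent that injures the colonic epithelium, and no mice without DSS enter the comparison.

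All 5 receptors are G protein-coupled and raise calcium inside the cell through Gq and phospholipase C-beta, which in smooth muscle leads to contraction. The B2 bradykinin receptor (Bdkrb2) is present in many resting tissues and binds bradykinin itself. The B1 receptor (Bdkrb1) binds kinins that have lost their last arginine, and is known for being scarce in healthy tissue and induced by injury and inflammatory cytokines. The endothelin A receptor drives contraction, while the endothelin B receptor also clears endothelin and, with its ligand endothelin 3, is needed for the nerve cells of the distal gut to form. In mice the AT1a receptor (Agtr1a) carries most of the response to angiotensin II.

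The values are FPKM (fragments scaled by transcript length and sequencing depth), so that levels can be compared between genes. In these libraries 11188 to 11358 genes had an FPKM of at least 1. Il10ra was listed at 0 in all 3 Pdgfra-cre libraries and in floxed libraries 8 and 9, and at 0.418 FPKM in floxed library 43, so its deletion could not be checked. Fibroblast markers other than Thy1 were abundant in all libraries, with Dcn at 9697 to 11261 FPKM in Pdgfra-cre and 8626 to 9149 in floxed libraries. Thy1, named here after its values were seen, was 7.25 ± 2.88 FPKM in Pdgfra-cre and 5.93 ± 2.13 in floxed mice (SD, n = 3 each). Pdgfra, whose regulatory sequence drives the cre, had 155, 120 and 174 FPKM in Pdgfra-cre libraries 13, 23 and 25, against 178, 186 and 199.9 in floxed libraries 8, 9 and 43. Ptprc (CD45), Pecam1 (CD31) and Epcam, the genes sorted against, lay between 0 and 1.11 FPKM. Pdgfra-cre library 23 stood apart, with a mean Pearson correlation across genes of 0.95 to its fellow libraries, where the others reached 0.96 to 0.97, and the highest S100a8, a neutrophil gene (94.7 FPKM, against 0 to 9.42 elsewhere). In sorted bulk samples, fewer cells of a type and less RNA per cell cannot be told apart.

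All 5 receptor genes were clearly expressed, and all had an FPKM of at least 1 in 6 of 6 libraries. By a rough estimate of depth, in which 0.112 to 0.131 FPKM corresponds to 1 read on each kilobase, the reads behind a receptor value ranged from about 203 (Ednrb in Pdgfra-cre library 23) to about 3061 (Bdkrb1 in the same library). By mean FPKM the order in the Pdgfra-cre group was Bdkrb1, Ednra, Agtr1a, Bdkrb2 and Ednrb, and in the floxed group Bdkrb1, Ednra, Agtr1a, Bdkrb2 and Ednrb as well. Neighbours in that order were not spaced alike. Bdkrb1 and Ednra were apart in the Pdgfra-cre libraries and overlapped in the floxed ones, where Bdkrb1 was 84.9 FPKM in library 43 and Ednra 91.7 in library 8. Ednra and Agtr1a overlapped in the Pdgfra-cre libraries but not in the floxed ones. Agtr1a and Bdkrb2 overlapped in the floxed libraries but not in the Pdgfra-cre ones, and Bdkrb2 and Ednrb overlapped in both.

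**Figure D1:**
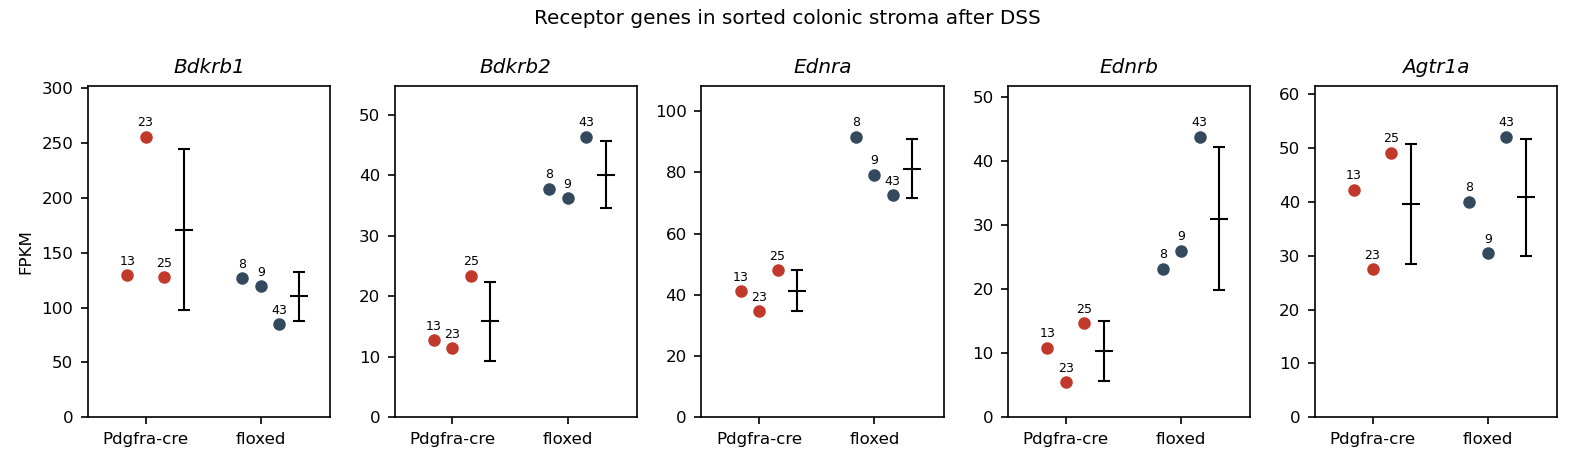
FPKM of the 5 receptor genes in each library, with Pdgfra-cre left of floxed, the mouse number above each point and the group mean with its SD beside the points. Bdkrb2, Ednra and Ednrb lie lower in every Pdgfra-cre library than in any floxed one, Bdkrb1 lies higher with library 23 far above the rest, and the Agtr1a groups overlap.

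Bdkrb2, the constitutive kinin receptor (chromosome 12, 105563226 to 105595237, mm10, plus strand), had 12.8, 11.5 and 23.4 FPKM in Pdgfra-cre libraries 13, 23 and 25, against 37.8, 36.2 and 46.4 in floxed libraries 8, 9 and 43. The groups did not overlap, and library 25 was the closest of its group to the floxed range. The means were 15.9 ± 6.55 FPKM in Pdgfra-cre and 40.1 ± 5.51 in floxed mice (SD, n = 3 each), so that the Pdgfra-cre mean was 39.6% of the floxed one. On the log2(FPKM + 1) scale, which slightly understates the change of low genes, the difference was -1.34 ± 0.24 (SE).

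Ednra, the receptor through which endothelin 1 contracts muscle (chromosome 8, 77663031 to 77724464, minus strand), had 41.3, 34.7 and 48.1 FPKM in Pdgfra-cre libraries 13, 23 and 25, against 91.7, 79.2 and 72.6 in floxed libraries 8, 9 and 43. All 3 Pdgfra-cre values were below the lowest floxed one, and the spread inside each group was the smallest of the 5 genes relative to its mean (a coefficient of variation of 16.2% in Pdgfra-cre and 11.9% in floxed). The means were 41.4 ± 6.69 FPKM in Pdgfra-cre and 81.2 ± 9.69 in floxed mice (SD, n = 3 each), with a log2 difference of -0.96 ± 0.15 (SE).

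Ednrb, the endothelin B receptor gene (chromosome 14, 103814625 to 103844402, minus strand), had 10.9, 5.52 and 14.7 FPKM in Pdgfra-cre libraries 13, 23 and 25, against 23.2, 26.0 and 43.8 in floxed libraries 8, 9 and 43. The groups did not overlap, but they were widely spread, with library 23 low among the Pdgfra-cre mice and library 43 high among the floxed ones. The means were 10.4 ± 4.62 FPKM in Pdgfra-cre and 31.02 ± 11.2 in floxed mice (SD, n = 3 each). The log2 difference of -1.53 ± 0.33 (SE) was the most negative of the 5 and was -1.18 without library 23.

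Bdkrb1, the inducible kinin receptor (chromosome 12, 105603085 to 105605428, plus strand), had 129, 256 and 128 FPKM in Pdgfra-cre libraries 13, 23 and 25, against 127, 119 and 84.9 in floxed libraries 8, 9 and 43. It was above 95.6 to 98.5% of all listed genes in every library, the highest standing among the 5. The groups did not overlap, but 127.7 FPKM in Pdgfra-cre library 25 and 126.7 in floxed library 8 were nearly equal, and library 23 alone lay far above the others. The means were 171 ± 73.4 FPKM in Pdgfra-cre and 110 ± 22.3 in floxed mice (SD, n = 3 each). The log2 difference was 0.57 ± 0.26 (SE) with all libraries and 0.24 without library 23. The Pdgfra-cre mean was 1.55 times the floxed mean with all libraries and 1.17 times without library 23. The neutrophil markers summed to 180 FPKM in library 23, against 10.8 to 18.1 in the other Pdgfra-cre libraries and 1.36 to 11.4 in the floxed ones. Most of the 180 FPKM came from S100a8 (94.7), S100a9 (63.85) and Retnlg (17.3), while Cxcr2 was 2.55, Mmp8 0.690 and Csf3r 0.669 FPKM. The part of neutrophils in the Bdkrb1 value was not tested.

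Agtr1a, the main mouse receptor for angiotensin II (chromosome 13, 30336441 to 30382867, plus strand), had 42.3, 27.4 and 49.1 FPKM in Pdgfra-cre libraries 13, 23 and 25, against 40.0, 30.5 and 52.1 in floxed libraries 8, 9 and 43. The groups covered nearly the same range, with means of 39.6 ± 11.1 FPKM in Pdgfra-cre and 40.9 ± 10.8 in floxed mice (SD, n = 3 each). The log2 difference was -0.05 ± 0.24 (SE). It turned positive without Pdgfra-cre library 23 (0.19) and without floxed library 43 (0.14). Reads of its close paralog Agtr1b could have been divided between the 2 genes, and Agtr1b was far lower, at 1.11 ± 1.04 FPKM in Pdgfra-cre and 2.45 ± 0.735 in floxed mice (SD, n = 3 each; limma adjusted p = 0.509).

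Of the 5 receptors, 3 were lower and 1 was higher with no overlap between groups. Over all genes tested, the groups did not overlap in 8.29% with lower and 8.07% with higher values in Pdgfra-cre. The receptors were chosen with this contrast known, so nothing is read from their count. No gene of the 11429 passed an adjusted p of 0.05 in limma (0% called), and 1253 genes (11.0%) reached an unadjusted p under 0.05 (628 or 5.49% lower and 625 or 5.47% higher in Pdgfra-cre). In either direction 16.4% did not overlap. The log2 difference was above 0 for 50.3% and below 0 for 49.7% of all genes tested, the background for the counts by list given further on.

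Bdkrb2 and Bdkrb1 are neighbours on chromosome 12, transcribed in the same direction, with 7847 bases between the end of the first and the start of the second in GENCODE M21. Bdkrb2 was lower and Bdkrb1 higher in Pdgfra-cre, the latter largely through library 23. Without library 23 the Pdgfra-cre mean was 0.45 times the floxed mean for Bdkrb2 and 1.17 times for Bdkrb1. The ratio of Bdkrb1 to Bdkrb2 within a library was 10.1, 22.3 and 5.45 in Pdgfra-cre libraries 13, 23 and 25, against 3.35, 3.30 and 1.83 in floxed libraries 8, 9 and 43. Every Pdgfra-cre ratio exceeded every floxed ratio. That had to be so, because Bdkrb1 was higher and Bdkrb2 lower with no overlap, and it is no further result. The mean ratios were 12.6 ± 8.68 in Pdgfra-cre and 2.83 ± 0.865 in floxed mice (SD, n = 3 each). Without library 23 the Pdgfra-cre mean was 7.80. A ratio within a library does not depend on its scaling, though it does not say which of the genes differed.

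Both endothelin receptors were lower in Pdgfra-cre. The ratio of Ednra to Ednrb was 3.80, 6.29 and 3.27 in Pdgfra-cre libraries 13, 23 and 25, against 3.95, 3.05 and 1.66 in floxed libraries 8, 9 and 43, and the groups overlapped. Their summed level was 51.7 ± 11.3 FPKM in Pdgfra-cre and 112 ± 6.10 in floxed mice (SD, n = 3 each), with 40.3 to 62.8 FPKM in the first group and 105 to 116 in the second. As both genes were lower with no overlap, their sum could not overlap either. Bdkrb1 made up 54.7, 76.4 and 48.5% of the summed FPKM of all 5 receptors in Pdgfra-cre libraries 13, 23 and 25, against 39.7, 41.0 and 28.3% in floxed libraries 8, 9 and 43. The sum over all 5 receptors overlapped between the groups, at 237 to 335 FPKM in Pdgfra-cre and 291 to 319 in floxed libraries.

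**Figure D2:**
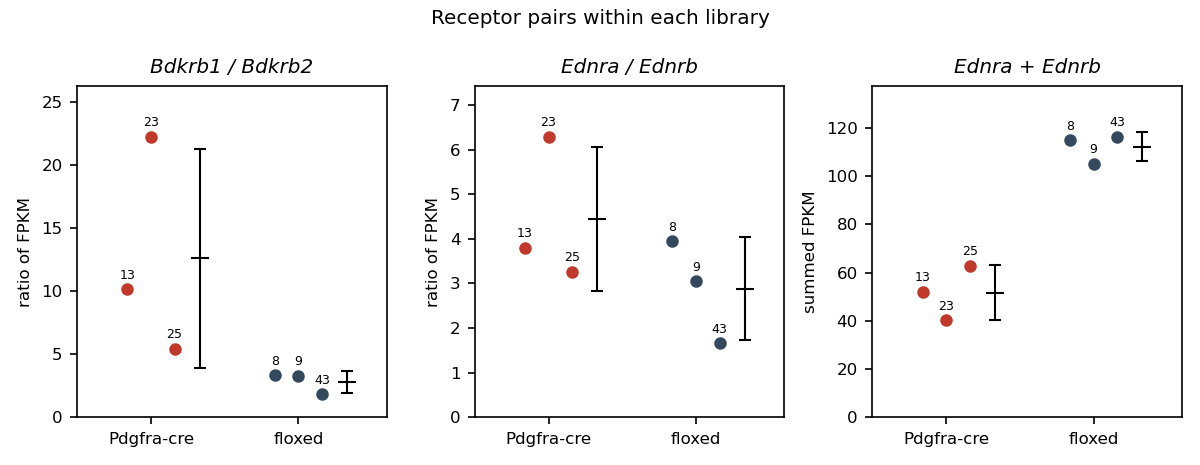
Ratio of Bdkrb1 to Bdkrb2, ratio of Ednra to Ednrb and summed FPKM of Ednra and Ednrb in each library, with Pdgfra-cre left of floxed, mouse numbers above the points and the group mean with its SD. The kinin receptor ratio and the endothelin receptor sum separate the groups, which follows from the single genes, none of which overlap. The Ednra to Ednrb ratio, at 3.27 to 6.29 in Pdgfra-cre and 1.66 to 3.95 in floxed libraries, does not separate them.

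The differences were also graded inside the Pdgfra-cre group. Bdkrb2, Ednra, Ednrb and Agtr1a were all lowest in library 23 and highest in library 25, and Bdkrb1 was highest in library 23. In the floxed group library 43 had the highest Bdkrb2, Ednrb and Agtr1a and the lowest Bdkrb1 and Ednra. Likeness of profiles was measured as the root mean square difference between log2(FPKM + 1) values, each centred on its gene's mean over the 6 libraries, so that 0 is an identical profile. Bdkrb2 and Ednrb differed by 0.29, Bdkrb2 and Ednra by 0.33 and Ednra and Ednrb by 0.52. Agtr1a differed from Ednra by 0.54, close to the distance between Ednra and Ednrb, from Bdkrb2 by 0.68 and from Ednrb by 0.77. Bdkrb1 differed from Agtr1a by 0.75 and from the other 3 by 0.89 to 1.34.

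Among 7879 other genes with a mean of at least 5 FPKM, the profiles nearest to each receptor were named by the same measure over the 6 libraries. Nearest to Bdkrb1 were Rspo1 (0.078), Prr13 (0.088) and Rspo3 (0.109). Rspo1 and Rspo3 encode R-spondins, secreted amplifiers of WNT signaling, and Rspo1 had 22.0, 43.6 and 22.0 FPKM in Pdgfra-cre libraries 13, 23 and 25, against 21.4, 19.6 and 16.3 in floxed libraries 8, 9 and 43. It thus shared the high value of library 23 and the low value of library 43. Nearest to Bdkrb2 were Gcnt2 (0.092), a glycosyltransferase gene, Fgfr2 (0.132), a fibroblast growth factor receptor, and 1810011O10Rik (0.161). Fgfr2 had 17.0, 17.6 and 29.4 FPKM in Pdgfra-cre libraries 13, 23 and 25, against 45.4, 40.0 and 57.5 in floxed libraries 8, 9 and 43.

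Nearest to Ednra were Cyp51 (0.111), which encodes an enzyme of cholesterol synthesis, Rgs2 (0.131), which encodes an inhibitor of Gq signaling, and Zc4h2 (0.135). Nearest to Ednrb were Bean1 (0.142), Bmp5 (0.159), which encodes a bone morphogenetic protein, and Pdlim3 (0.161), which encodes a protein bound to the actin cytoskeleton. Bmp5 had 30.6, 18.6 and 34.4 FPKM in Pdgfra-cre libraries 13, 23 and 25, against 59.3, 62.0 and 96.4 in floxed libraries 8, 9 and 43. With 6 libraries and so many genes, some profiles come close by number alone. Agtr1a spanned less than 1 log2 unit over the libraries, and no nearest genes were sought for it.

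**Figure D3:**
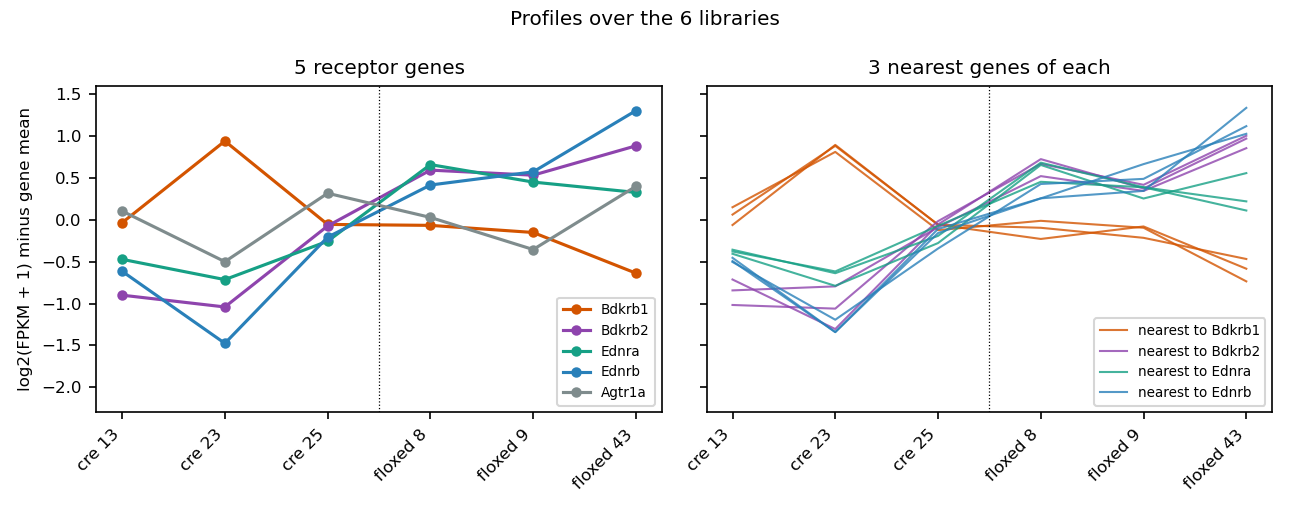
Centred log2(FPKM + 1) in each library for the 5 receptor genes (left) and for the 3 genes nearest to each of 4 receptors (right), with Pdgfra-cre libraries (cre) left of the dotted line and floxed libraries right of it; lines only join the values of 1 gene. Bdkrb2, Ednra and Ednrb are lower and Bdkrb1 higher in the Pdgfra-cre libraries, and library 23 holds the extreme value of each of these 4 genes.

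The RefSeq promoter table (GRCm38.p6) held 3 of the 5 receptor genes, Bdkrb2, Ednra and Ednrb, which are the 3 with lower values in Pdgfra-cre. Their 250 bases before the annotated start are shown, because these genes were lower in every Pdgfra-cre library, with motif matches in capitals. The Ednrb window lies in an intron of a longer Ednrb transcript of GENCODE M21, and the end of the Ednra window overlaps the first exon of a non-coding Ednra transcript there.
Bdkrb2, chr12:105562922-105563171, plus strand: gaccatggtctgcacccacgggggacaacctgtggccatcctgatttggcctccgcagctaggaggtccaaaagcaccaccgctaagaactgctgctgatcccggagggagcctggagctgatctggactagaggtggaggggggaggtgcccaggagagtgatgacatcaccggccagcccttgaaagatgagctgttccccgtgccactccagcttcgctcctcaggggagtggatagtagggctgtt
Ednra, chr8:77724453-77724702, minus strand: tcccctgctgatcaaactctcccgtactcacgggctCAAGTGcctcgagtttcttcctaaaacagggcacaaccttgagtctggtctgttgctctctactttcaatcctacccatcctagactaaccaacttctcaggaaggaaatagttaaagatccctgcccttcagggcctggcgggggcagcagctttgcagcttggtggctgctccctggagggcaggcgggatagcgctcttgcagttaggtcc
Ednrb, chr14:103843702-103843951, minus strand: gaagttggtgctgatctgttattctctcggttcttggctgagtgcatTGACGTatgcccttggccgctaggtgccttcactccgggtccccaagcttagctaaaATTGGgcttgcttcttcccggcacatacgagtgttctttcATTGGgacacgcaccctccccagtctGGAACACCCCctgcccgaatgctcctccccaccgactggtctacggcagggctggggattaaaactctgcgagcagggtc

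The capitals mark matches, on either strand, to any of 10 promoter motifs. The basal promoter elements searched were the TATA element, spelled TATAAA here, the CCAAT box, named by its own letters, and the GC-rich element bound by Sp1, spelled GGGCGG. The sites of inducible or tissue factors were the AP-1 motif, spelled TGANTCA in this search, the E-box, for which any CANNTG was taken, the core of the cAMP response element, spelled TGACGT, and the motif of GATA factors, spelled AGATAA. The interferon-stimulated response element, CArG box and NF-kB site were searched in their usual degenerate forms, and any of the 10 may overlap another. The Bdkrb2 window held none of them. The Ednra window held 1 E-box, which occurs in 66.2% of all 32851 promoters in the table over the same 250 bases. The Ednrb window held 2 CCAAT boxes (in 33.8% of promoters), 1 cAMP response element core (6.47%) and 1 NF-kB form (7.25%). No motif was shared by the 3 windows, and no TATA element and no Sp1 element was found in any (12.4 and 32.7% of promoters). GC content was 60.8% for Bdkrb2, 54.8% for Ednra and 56.8% for Ednrb, against a median of 52.4% over the table. These letter matches describe the sequence and do not show binding.

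The ligands of the endothelin receptors were scarce in the sorted cells. Edn1 lay between 0 and 0.443 FPKM in Pdgfra-cre and between 0.197 and 1.32 in floxed libraries, and Edn2 was listed at 0 in all 6. Edn3, the ligand that acts mainly through Ednrb, was 3.74 ± 1.502 FPKM in Pdgfra-cre and 4.40 ± 2.41 in floxed mice (SD, n = 3 each; limma adjusted p = 0.934). Ece1, which encodes the enzyme that cuts big endothelin to its active form, was 29.5 ± 4.10 FPKM in Pdgfra-cre and 39.7 ± 7.71 in floxed mice, with a log2 difference of -0.40 ± 0.17 (SE, n = 3 each; limma adjusted p = 0.415). Its homolog Ece2 had 12.2 ± 3.80 FPKM in Pdgfra-cre and 12.1 ± 1.79 in floxed mice (SD, n = 3 each). Of 8 genes of endothelin ligands and processing, 3 could be tested, all 3 had a log2 difference below 0 and 0 passed, with a median of -0.14 against 0.0012 over all genes tested. That median was -0.44 without floxed library 9 and -0.018 without floxed library 43.

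On the kinin side, 10 of 17 genes of kinin formation and breakdown were tested. Of these, 8 had a log2 difference above 0, 2 below, and 0 passed, with a median of 0.12 (0.047 without Pdgfra-cre library 23 and 0.027 without floxed library 43). The most abundant was Serping1, which encodes the C1 inhibitor, a brake on plasma kallikrein, at 3599 ± 614 FPKM in Pdgfra-cre and 2649 ± 251 in floxed mice (SD, n = 3 each; limma adjusted p = 0.311). Kng2, a kininogen gene that carries the bradykinin sequence, was 17.0, 44.9 and 7.58 FPKM in Pdgfra-cre libraries 13, 23 and 25, against 16.2, 15.3 and 6.30 in floxed libraries 8, 9 and 43, and its near copy Kng1 lay between 0 and 2.31 FPKM, so that reads may have been divided between them. The groups overlapped for both.

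Enzymes that cut kinins ranged widely in level. Ace, which encodes the angiotensin-converting enzyme and also destroys bradykinin, was 6.76 ± 1.06 FPKM in Pdgfra-cre and 7.13 ± 4.60 in floxed mice (SD, n = 3 each; limma adjusted p = 0.969). Mme, which encodes neprilysin, lay between 0 and 0.230 FPKM. Cpm, which encodes a carboxypeptidase that removes the last arginine of kinins and so makes B1 ligands, was 0.821 ± 0.780 FPKM in Pdgfra-cre and 1.83 ± 0.780 in floxed mice (SD, n = 3 each; limma adjusted p = 0.537). Cpd, another carboxypeptidase gene on this list, is named here after its values were seen. It was more abundant, at 9.49 ± 0.333 FPKM in Pdgfra-cre and 8.31 ± 0.500 in floxed mice (SD, n = 3 each; limma adjusted p = 0.783). The aminopeptidase P gene Xpnpep1 had 56.1 ± 1.87 FPKM in Pdgfra-cre and 55.9 ± 7.72 in floxed mice, and the prolyl endopeptidase gene Prep had 22.8 ± 3.61 and 24.1 ± 2.86 in the same order (SD, n = 3 each). Xpnpep2, which encodes the membrane-bound aminopeptidase P, was 8.83 ± 4.64 FPKM in Pdgfra-cre and 5.08 ± 1.76 in floxed mice (SD, n = 3 each; limma adjusted p = 0.587).

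In the renin-angiotensin system the precursor gene had the most negative difference. Agt, which encodes angiotensinogen, had 21.1, 9.55 and 19.6 FPKM in Pdgfra-cre libraries 13, 23 and 25, against 43.5, 48.8 and 89.6 in floxed libraries 8, 9 and 43. The groups did not overlap, with the lowest value again in library 23 and the highest in library 43, as for Ednrb. The log2 difference was -1.80 ± 0.33 (SE, n = 3 each) and did not pass (limma adjusted p = 0.156). Ren1, the renin gene, was 13.4 ± 3.02 FPKM in Pdgfra-cre and 7.14 ± 4.23 in floxed mice (SD, n = 3 each; limma adjusted p = 0.326). Enpep, which encodes an aminopeptidase that degrades angiotensin II, was 21.8 ± 8.58 FPKM in Pdgfra-cre and 15.5 ± 6.04 in floxed mice (SD, n = 3 each; limma adjusted p = 0.701).

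The prorenin receptor gene Atp6ap2 was 90.7 ± 6.34 FPKM in Pdgfra-cre and 100.4 ± 9.60 in floxed mice, and Agtrap, which encodes a protein that binds the AT1 receptor, was 13.7 ± 2.91 and 15.2 ± 1.03 in the same order (SD, n = 3 each). Agtr2, the other angiotensin receptor, lay between 0.0378 and 0.434 FPKM in Pdgfra-cre and between 0.314 and 0.554 in floxed libraries. Mrgprd, Ctsg and Cma1 were listed at 0 in all 6 libraries. Of 16 genes on this list 10 were tested, 5 above 0 and 5 below, 0 passed, and the median log2 difference was -0.049.

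Receptors for other vasoactive agents were examined as a wider class. Of 51 listed, 20 could be tested, of which 13 had a log2 difference below 0 and 7 above, 0 passed, and the median was -0.13. Non-overlapping groups were seen for 1 of the 20, against 16.4% of all genes tested. Without Pdgfra-cre library 23 they were seen for 1 higher and 3 lower genes of the 20, against 12.6% of all genes in each direction. The 1 gene with all libraries was F2r, which encodes the thrombin receptor PAR1. F2r had 86.8, 43.2 and 97.5 FPKM in Pdgfra-cre libraries 13, 23 and 25, against 131, 140 and 192 in floxed libraries 8, 9 and 43, with a log2 difference of -1.08 ± 0.28 (SE, n = 3 each; limma adjusted p = 0.210). Tbxa2r, the thromboxane receptor gene, was 5.60 ± 3.01 FPKM in Pdgfra-cre and 11.2 ± 2.29 in floxed mice (SD, n = 3 each; limma adjusted p = 0.279).

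For other abundant receptors of this class the groups overlapped. The lysophosphatidic acid receptor gene Lpar1 was 192 ± 22.8 FPKM in Pdgfra-cre and 195 ± 13.3 in floxed mice (SD, n = 3 each; limma adjusted p = 0.965), above the mean of each of the 5 peptide receptors in both groups. Ramp2, a partner of the adrenomedullin receptor, was 73.6 ± 17.98 FPKM in Pdgfra-cre and 80.2 ± 13.8 in floxed mice, and P2ry14, a receptor for UDP-sugars, was 65.7 ± 16.9 and 87.6 ± 24.7 in the same order (SD, n = 3 each). The highest-ranked by p among those above 0 were Npr1, a natriuretic peptide receptor gene (limma adjusted p = 0.624), and Adora2b, an adenosine receptor gene (0.817). Of the alpha- and beta-adrenergic receptor genes on this list, all 8 lay below the filter, and none exceeded 1.78 FPKM.

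**Figure D4:**
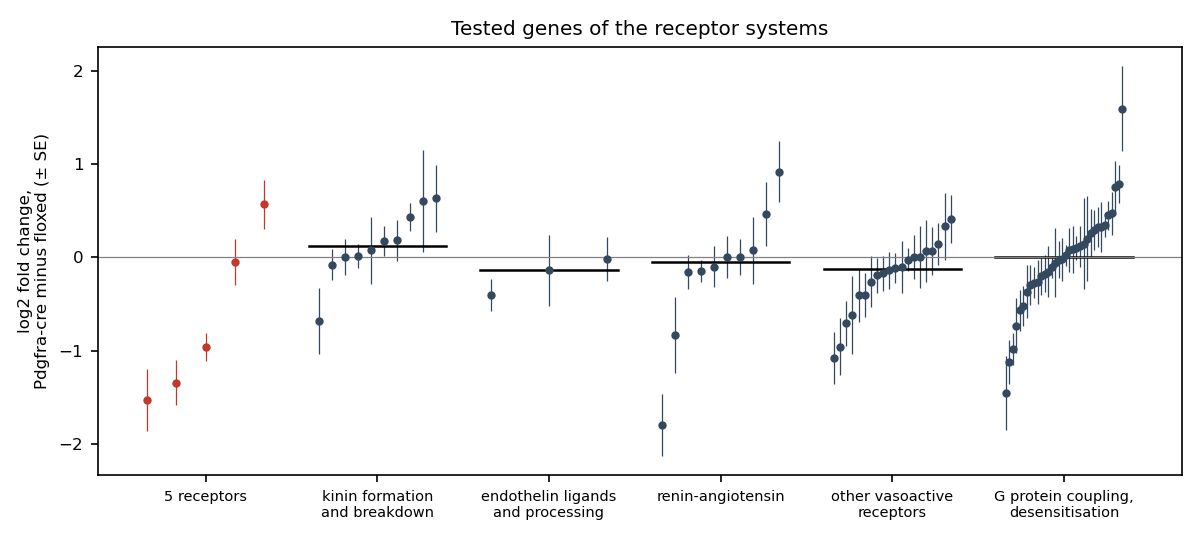
Log2 fold change (Pdgfra-cre minus floxed) with its SE for each tested gene of the receptor group (red) and of 5 related lists (dark), with each related list's median as a bar; genes are ordered by value within a list. Agt is the lowest point of the renin-angiotensin list at -1.80, and the medians of the related lists lie between -0.14 and 0.12.

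Downstream of the receptors, genes of G protein coupling and desensitisation were split evenly by direction with all libraries. Of 38 listed, 34 were tested, with 17 above 0, 17 below, 0 passed and a median log2 difference of 0.00075 (-0.13 without Pdgfra-cre library 23 and -0.11 after rescaling to TPM). Non-overlapping groups were seen for 4 higher and 6 lower genes of the 34, against 8.07 and 8.29% of all genes tested. Without Pdgfra-cre library 23, 14 were above 0 and 20 below. The groups then did not overlap for 5 higher (14.7%) and 9 lower genes (26.5%), against 12.6% of all genes in each direction. Regulators of G protein signaling, which switch G proteins off, held the lowest p among the lower genes. Rgs2, which acts on Gq, had 28.7, 21.8 and 31.5 FPKM in Pdgfra-cre libraries 13, 23 and 25, against 61.0, 46.0 and 57.0 in floxed libraries 8, 9 and 43. The groups did not overlap, and the log2 difference of -0.98 ± 0.17 (SE, n = 3 each) did not pass (limma adjusted p = 0.153). Rgs10 was 37.9 ± 11.9 FPKM in Pdgfra-cre and 81.3 ± 14.9 in floxed mice (SD, n = 3 each; limma adjusted p = 0.169).

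Higher values were seen for Plcb4, a phospholipase C-beta gene, at 10.1 ± 2.09 FPKM in Pdgfra-cre and 5.36 ± 0.636 in floxed mice (SD, n = 3 each; limma adjusted p = 0.213). Gna12, which encodes a G protein alpha subunit, had 7.72, 17.6 and 39.2 FPKM in Pdgfra-cre libraries 13, 23 and 25, against 6.05, 4.65 and 4.98 in floxed libraries 8, 9 and 43 (limma adjusted p = 0.243), with library 25 the highest. The most abundant members were Gnas, which encodes the stimulatory alpha subunit, at 441 ± 73.5 FPKM in Pdgfra-cre and 323 ± 49.7 in floxed mice, and Rcan1, a gene induced by calcineurin signaling, at 260 ± 27.3 and 205 ± 24.2 in the same order (SD, n = 3 each; limma adjusted p = 0.320 and 0.355). Gnai2 and Gnai3, which encode inhibitory alpha subunits, had adjusted p of 0.972 and 0.819 in limma.

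Smooth muscle markers were lower in the same libraries as Bdkrb2, Ednra and Ednrb, whereas Bdkrb1 was higher and Agtr1a overlapped. Smooth muscle cells and pericytes, the contractile cells of gut and vessels, are known to carry endothelin and angiotensin receptors. Smooth muscle markers summed to 334, 147 and 369 FPKM in Pdgfra-cre libraries 13, 23 and 25, against 608, 602 and 624 in floxed libraries 8, 9 and 43. All 8 had lower values with no overlap between groups, against 8.29% of all genes tested. Their median log2 difference was -1.15 (-0.82 without library 23), and 0 passed. The sum was lowest in library 23, as for Bdkrb2, Ednra, Ednrb and also Agtr1a. The sums lay close together in the floxed libraries. In floxed libraries 8, 9 and 43 Ednra was 91.7, 79.2 and 72.6 FPKM, and Ednrb was 23.2, 26.0 and 43.8. Acta2, the most abundant smooth muscle marker, was 146 ± 57.3 FPKM in Pdgfra-cre and 317 ± 30.8 in floxed mice (SD, n = 3 each; limma adjusted p = 0.169). Pericyte markers summed to 31.8 to 42.2 FPKM in Pdgfra-cre and 45.8 to 62.8 in floxed libraries, but the members did not all differ alike. Of 6 tested, 4 were below 0 and 2 above, 0 passed, and the median log2 difference was -0.31. Lower values with no overlap were seen for 2 of the 6, against 8.29% of all genes tested. Rgs5, a common pericyte marker, had a log2 difference of 0.08 ± 0.23 (SE, n = 3 each). Their most abundant member, Kcnj8, was 17.8 ± 3.21 FPKM in Pdgfra-cre and 30.4 ± 6.82 in floxed mice (SD, n = 3 each; limma adjusted p = 0.217), while the defining genes Notch3 and Higd1b lay at or below 0.379 FPKM. The part of contractile cells in the lower receptor values was not tested.

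Markers of 5 other cell types were also summed. Endothelial markers summed to 37.8 to 49.96 FPKM in Pdgfra-cre and 37.9 to 48.7 in floxed libraries, most of it from Tek at 32.3 to 41.5 FPKM in Pdgfra-cre and 27.1 to 34.8 in floxed libraries, while Cdh5 was listed at 0 in all 6 libraries and Pecam1 reached 0.856 FPKM. Esam, which encodes an endothelial adhesion molecule and, like Rgs5, is named here after its values were seen, was lower with no overlap, at 5.45 ± 0.894 FPKM in Pdgfra-cre and 10.45 ± 2.096 in floxed mice (SD, n = 3 each; limma adjusted p = 0.199). Enteric glia, another cell type known for Ednrb, had marker sums of 8.99, 5.72 and 10.97 FPKM in Pdgfra-cre libraries 13, 23 and 25, against 19.9, 15.04 and 6.98 in floxed libraries 8, 9 and 43. All 5 tested glial markers had a log2 difference below 0 (median -0.54) with overlapping groups, and 0 passed. The glial sums followed the order of Ednrb in the Pdgfra-cre libraries and not in the floxed ones, where library 43 had the highest Ednrb and the lowest glial sum. The part of glia and endothelial cells in the receptor values was not tested. Interstitial cells of Cajal had sums of 14.4 to 19.6 FPKM in Pdgfra-cre and 14.04 to 20.1 in floxed libraries. Leukocyte markers summed to 16.03 to 39.1 FPKM in Pdgfra-cre and 18.3 to 26.8 in floxed libraries, and epithelial markers to 8.64 to 32.1 and 5.17 to 18.8 in the same order, both highest in library 23. Most of the epithelial sum in library 23 came from Krt8 (11.5 FPKM), Krt18 (12.1) and Lgals4 (6.70), while Epcam was 1.11 and Cdh1 0.664 FPKM. Of 3 epithelial markers tested, 2 had a log2 difference above 0 and 1 below, and 0 passed.

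**Figure D5:**
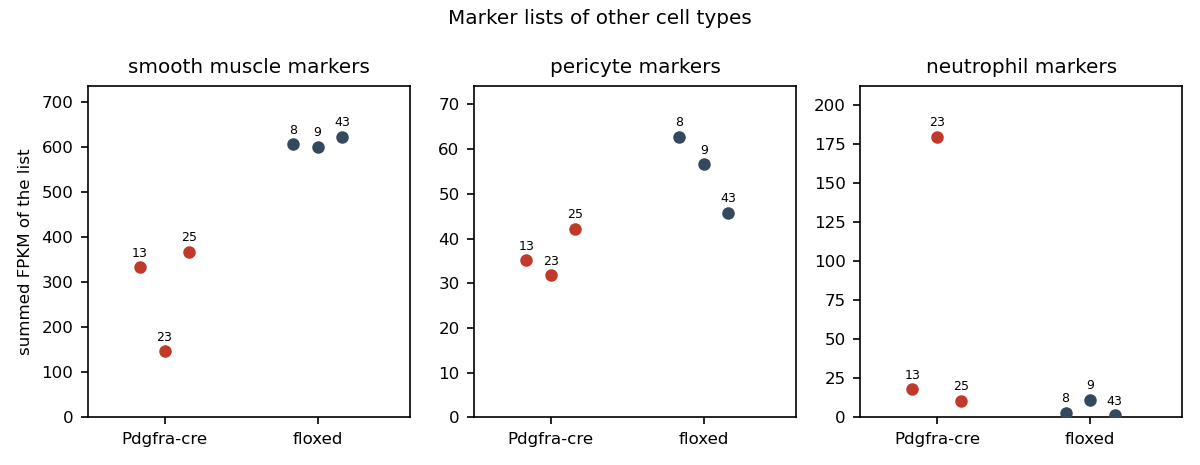
Summed FPKM of the smooth muscle, pericyte and neutrophil marker lists in each library, with Pdgfra-cre left of floxed and mouse numbers above the points. Smooth muscle and pericyte sums are lower in every Pdgfra-cre library, the pericyte sum mainly through Kcnj8 and Abcc9 (median of the 6 tested pericyte genes -0.31, 2 of them above 0). The neutrophil sum of 180 FPKM in library 23 stands alone and comes mostly from S100a8 and S100a9.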

How the data were processed

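The authors deposited FPKM values per gene, in a separate table for each of 6 libraries. Per the submitters' processing notes, the tools were TopHat2 2.1.1, Bowtie2 2.2.8, SAMtools 0.1.18 and Cuffdiff 2.2.1, with build mm10. Their gene annotation and settings are not given in the sources used here, nor are depths. Per the labels' protocols, full-length cDNA was amplified with SMART-Seq HT and tagmented with Nextera XT, a route that does not mark strand, so overlapping genes may share reads. Each library came from a different mouse.

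FPKM values were taken as log2(FPKM + 1), and 11429 genes with at least 1 FPKM in at least 3 libraries were fitted with limma 3.58.1 in R 4.3.3 (moderated test with a variance trend, Benjamini-Hochberg adjustment over all of them, threshold 0.05). The procedure was tested on simulated data. The receptors and gene lists were chosen with earlier results of these data known. Named genes were the receptors, a fixed set of ligands and enzymes, the 4 most abundant and the 2 lowest-p genes per direction of each list, and the nearest profiles. A rough depth came from the commonest value, within a low range set in advance, of FPKM times transcript length. It used 5676 genes with 1 annotated transcript. Coordinates came from GENCODE M21 (GRCm38, the same assembly as mm10), and promoters from RefSeq. Alternatives were other pseudocounts (0.1 and 5), filters (none, 5 FPKM), scalings (median of ratios, quantile, TPM), no variance trend and leaving out each library. The labels name no batch, and p-values measure the spread between libraries, each from a different mouse.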

Additional observations from a re-analysis of the deposited data

How the results depend on the processing

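The directions of Bdkrb1, Bdkrb2, Ednra and Ednrb were the same under the other scalings. Their groups did not overlap, so other pseudocounts, filters and leaving out a library could not reverse a direction. Those settings show only how the size of the difference changed. Over those settings and omissions the log2 differences ran from 0.24 to 0.74 for Bdkrb1, from -1.64 to -1.15 for Bdkrb2, from -1.07 to -0.84 for Ednra and from -1.81 to -1.18 for Ednrb. Agtr1a ran from -0.24 to 0.19 with libraries left out. Of 246 recomputed values, 12 moved by more than the spread between replicates and 13 changed sign, none of them a value of these 4 receptors, and the cause was not tested. The median of G protein coupling and desensitisation was -0.11 after rescaling to TPM, a scaling that shifts the median of all genes to -0.091, and -0.13 to 0.044 with libraries left out. That of endothelin ligands and processing was -0.44 to -0.018. The number of genes past an adjusted p of 0.05 in limma was 0 under the other settings and 0 to 33 with libraries left out (2 without floxed library 43, 3 without Pdgfra-cre library 13 and 33 without Pdgfra-cre library 25). The counts by list without Pdgfra-cre library 23 were added after seeing the data, and 0 genes passed without it. No paired analysis was possible because the mouse numbers of the groups do not overlap. With 3 mice a group, precision is limited. Each library came from a different mouse, so spread between mice cannot be told apart from spread between library preparations.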
